A study of Mus musculus with 8 samples.

Results

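Expression of 8 genes for proteins of the red cell membrane and of red cell transport, Slc4a1, Rhag, Aqp1, Car2, Ank1, Epb42, Epor and Ermap, was followed in mouse yolk sac tissue at embryonic day 9.5 (E9.5) on 8 Affymetrix arrays. The genes were chosen by name, with earlier results of these data known. They are 8 of 18194 genes that the arrays measured with a probe set assigned to a single gene. For each gene the probe set whose signal averaged highest over the 8 arrays was read, and the others served as a check. The arrays fell into 4 groups of 2. EC-N1ICD embryos (genotype Tie2 Tg/0; ROSA +/N1ICD, strain C57BL6) expressed the activated intracellular domain of Notch1 after recombination, and their wild type group (Tie2 0/0; ROSA +/+, the same strain) carried neither the Cre transgene nor the ROSA allele. EC-Rbpj-KO embryos (Tie2-Cre; Rbpj flox/flox, mixed strain) lost Rbpj, through which activated Notch reaches DNA, in recombined cells. The wild type group of the EC-Rbpj-KO set was of mixed strain and was taken as wild type from its source name and title, since its genotype is not given. In both models the Tie2 promoter drives Cre in the endothelial and the hematopoietic lineages, so both can carry the recombined allele, whereas the RNA came from whole yolk sac. The sources used here do not state that each array held a separate embryo, so p-values reflect only how far these samples spread, which may be technical except in EC-Rbpj-KO, whose arrays carried transcripts of opposite sexes.

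At E9.5 the blood of the mouse embryo consists mainly of primitive erythrocytes, large nucleated red cells that arise in the blood islands of the yolk sac. In a red cell, a skeleton of spectrin lies under the plasma membrane and is tied to it by ankyrin, which binds the anion exchanger band 3, with protein 4.2 at the same complex. Band 3 exchanges chloride for the bicarbonate that carbonic anhydrase makes from carbon dioxide, Rh-associated glycoprotein and aquaporin 1 conduct small neutral molecules, and the erythropoietin receptor carries the hormone signal that keeps red cell precursors alive. In RNA of a whole tissue, fewer red cells and less of an RNA in each red cell cannot be told apart.

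Before the members' values, 3 facts of the arrays bear on each of them. Rbpj itself read 470 and 497 in EC-Rbpj-KO and 984 and 919 in the matched wild type, in the direction of the labels. Xist, the RNA of the inactive X chromosome, read 3600 and 3730 in EC-N1ICD and 2005 on EC-Rbpj-KO replicate 1. The other 5 arrays read 77 to 96 for Xist, and 702 to 870 for the Y-linked gene Eif2s3y, which read 9 to 12 on the first 3. Female transcripts thus coincided with the mutant genotype in the EC-N1ICD set, where sex and genotype cannot be told apart within the set, and with replicate 1 in EC-Rbpj-KO. The sample name of replicate 1 of each mutant also opens with another number than the names of the remaining 3 samples of that set do, and what this number stands for is not given. Replicates were numbered in order of deposit, so a number shared by arrays of different groups pairs nothing. Markers of blood and of yolk sac endoderm were present on every array: the embryonic beta globin Hbb-bh1 read 17777 to 36554, and the 11 tested visceral endoderm markers summed to 174872 to 200252.

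The 8 genes had lower mean signals in EC-N1ICD than in wild type, and for all but Aqp1 replicate 1 lay further below than replicate 2 by at least 0.84 on the log2 scale. On that array 6 of the 7 members that passed the filter on low signals lay at least 2-fold below the mean of their wild type arrays, and on replicate 2 none did. The shares of all 10913 tested genes that did so were 1.53% and 0.651%. The median over these 7 members was -2.30 on the log2 scale on replicate 1 and -0.42 on replicate 2, beside 0.00 and 0.04 over all tested genes. In EC-Rbpj-KO the same median was -1.09 on replicate 1 and 0.01 on replicate 2. In this model 4 members (Slc4a1, Rhag, Epb42 and Ermap) lay at least 2-fold below wild type on replicate 1 and none on replicate 2, where the shares of all tested genes were 2.04% and 2.32%.

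**Figure D1:**
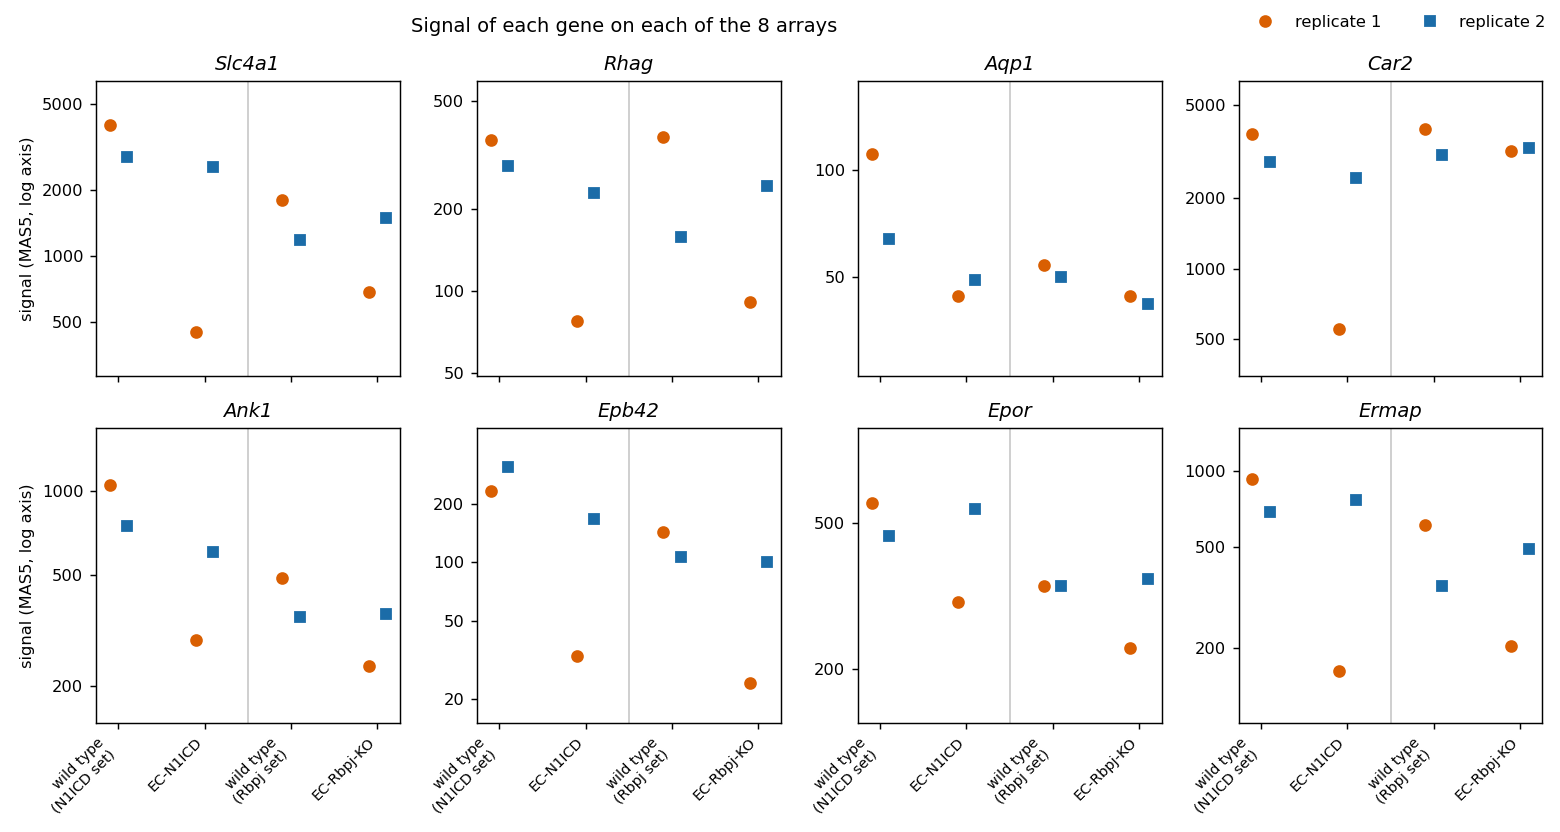
Signal of each gene on each array (linear MAS5 signal on a log axis whose range differs between panels), with circles for replicate 1 and squares for replicate 2 of each group and no error bars, since every array is shown. In EC-N1ICD and EC-Rbpj-KO the replicate 1 circle is the lowest point of its set for Slc4a1, Rhag, Ank1, Epb42, Epor and Ermap, Car2 has a low circle in EC-N1ICD alone (554 against 2448 to 3779), and Aqp1 stays between 42 and 111.

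No member passed the test of the mean change in either model. With limma over the 10913 tested genes and Benjamini-Hochberg adjustment, 0 of 7 members had an adjusted p under 0.05 in EC-N1ICD, where 0.596% of all tested genes did (24 lower and 41 higher), and 0 of 7 in EC-Rbpj-KO, where 4.96% did (323 lower and 218 higher). Median centring of each array gave 49 lower of 92 calls in EC-N1ICD, and quantile normalization gave 303 lower of 660 in EC-Rbpj-KO. At an unadjusted limma p under 0.05, 5 members (Slc4a1, Rhag, Car2, Ank1 and Epb42) were lower in EC-N1ICD, as were 5.47% of tested genes, and 0 members in EC-Rbpj-KO, where 11.6% were lower. The methods' t-test gave no member an unadjusted p under 0.05 in either model. Both EC-N1ICD arrays lay below both wild type arrays for the same 5 members (18.9% of tested genes did), and the mean difference was at least 2-fold for each of the 5 (0.742%). In EC-Rbpj-KO this held for Epb42 alone (27.5% without and 1.53% with the size limit). With 2 arrays a group, the smallest two-sided p of an exact permutation test is 0.333, so none was used.

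The sequence upstream of Rhag, Ermap, Epor, Epb42 and Aqp1, the 5 of 8 members with a RefSeq promoter window, was read as a description only. Slc4a1, Car2 and Ank1 had no window. RefSeq windows (GRCm38.p6) of 250 bases before and 50 after the annotated start were searched on both strands for AGATAA or TGATAA (a form of the site of the erythroid factor GATA1), CACCC (the core of the site of the erythroid factor KLF1), CAGCTG or CAGATG (E-boxes such as the factor SCL binds) and GTGGGAA (a form of the RBPJ site). The bases from 250 to 26 before the start are printed for the 4 members with a GATA match, with GATA and CACCC matches in capitals on either strand (an opposite-strand match reads as its reverse complement), read 5′ to 3′ along the gene, from chr17:40810899-40811123 (plus strand, Rhag), chr4:119190021-119190245 (minus strand, Ermap), chr9:21963602-21963826 (minus strand, Epor) and chr2:121036903-121037127 (minus strand, Epb42):
Rhag: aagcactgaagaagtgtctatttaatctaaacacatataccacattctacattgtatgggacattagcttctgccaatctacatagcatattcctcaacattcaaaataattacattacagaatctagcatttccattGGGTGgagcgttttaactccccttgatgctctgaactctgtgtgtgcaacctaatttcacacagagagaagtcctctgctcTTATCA
Ermap: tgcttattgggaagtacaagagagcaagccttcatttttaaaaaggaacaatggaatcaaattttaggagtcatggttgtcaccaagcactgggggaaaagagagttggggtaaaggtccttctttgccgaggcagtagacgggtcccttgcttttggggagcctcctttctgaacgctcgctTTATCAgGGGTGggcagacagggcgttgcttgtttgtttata
Epor: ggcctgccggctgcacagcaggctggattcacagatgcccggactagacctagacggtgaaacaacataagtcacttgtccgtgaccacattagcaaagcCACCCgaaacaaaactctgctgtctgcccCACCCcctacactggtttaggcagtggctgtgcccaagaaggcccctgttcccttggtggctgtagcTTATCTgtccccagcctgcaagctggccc
Epb42: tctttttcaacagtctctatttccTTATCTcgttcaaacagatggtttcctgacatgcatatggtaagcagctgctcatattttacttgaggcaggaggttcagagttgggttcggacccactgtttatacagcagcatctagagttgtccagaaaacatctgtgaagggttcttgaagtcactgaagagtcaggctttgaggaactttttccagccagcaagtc
A GATA match lay 31 bases before the start of Rhag, 67 before that of Ermap, 54 before that of Epor and 226 before that of Epb42, all on the opposite strand. The longest RefSeq gene model of Rhag begins upstream of the start used here, at chr17:40811099, so its GATA match lies inside that model, while the matches of the other 3 genes lie outside theirs. Aqp1 had no GATA match and 3 CACCC matches. CACCC occurred in the windows of Rhag, Ermap, Epor and Aqp1, the E-box letters in those of Epor (4 matches) and Epb42 (3 matches), and the RBPJ letters in none of the 5. Of all 32851 RefSeq windows, 18.6% held a GATA match, 57.5% CACCC, 30.6% an E-box, 6.38% the RBPJ letters and 8.96% both GATA and CACCC, as Rhag, Ermap and Epor did. A match is a match of letters and no evidence of binding.

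**Figure D2:**
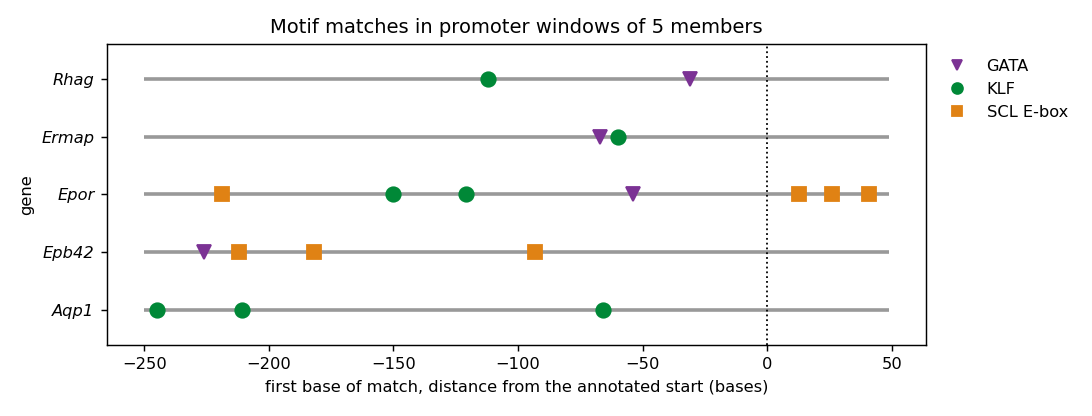
Positions of the motif matches in the RefSeq promoter windows of 5 members (first base of each match in bases from the annotated start, dotted line), with triangles for GATA, circles for CACCC (KLF) and squares for E-boxes (SCL). Rhag, Ermap, Epor and Epb42 each hold 1 GATA match, and Ermap has its GATA and CACCC matches 67 and 60 bases before the start.

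Among the membrane channels and carriers, Slc4a1 encodes band 3, the chloride-bicarbonate exchanger and the main integral protein of the red cell membrane (chr11:102348820-102365281). Slc4a1 read 449 and 2559 in EC-N1ICD yolk sacs, compared with 3976 and 2835 in wild type. Both mutant arrays lay below both wild type arrays, but the replicates differed 5.70-fold from each other and replicate 2 lay close to the lower wild type array. The mean log2 change was -1.65 (SE 0.61, 95% interval -2.99 to -0.30, n = 2 per group, adjusted p = 0.292 from limma), a 3.13-fold lower signal. Without replicate 1 the change was -0.39, and without replicate 2 it was -2.90 and passed the test (adjusted p = 0.00837 from limma, with the lone array assumed to vary like the other groups).

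In EC-Rbpj-KO yolk sacs Slc4a1 had signals of 685 and 1499 against 1802 and 1181 in wild type. The groups overlapped, with replicate 1 below and replicate 2 between the wild type arrays, and the log2 change was -0.53 (SE 0.61, 95% interval -1.87 to 0.82, adjusted p = 0.688 from limma). The name of this probe set carries the suffix x_at, which marks probes that may also match other transcripts. A second Slc4a1 probe set without that suffix showed the same order of replicates in both mutants, with 364 and 1316 against 1829 and 1590 in the EC-N1ICD set (log2 change -1.30) and 648 and 1061 against 1092 and 949 in the EC-Rbpj-KO set (-0.30). The remaining Slc4a1 probe set had signals of 15 to 30 on the 8 arrays, below the array medians of 38 to 51, and carried no usable change.

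Rhag encodes the Rh-associated glycoprotein, a membrane protein that carries the Rh blood group complex and conducts ammonia (chr17:40811099-40844094). Rhag read 78 and 229 in EC-N1ICD yolk sacs, compared with 360 and 287 in wild type, without overlap. Its log2 change was -1.27 (SE 0.55, 95% interval -2.46 to -0.07, adjusted p = 0.388 from limma), and it was -2.04 on replicate 1 and -0.49 on replicate 2. In EC-Rbpj-KO the signals were 91 and 243 against 369 and 158, a log2 change of -0.70 (SE 0.55, adjusted p = 0.515 from limma). Here the wild type arrays themselves lay 1.22 apart on the log2 scale, more than for any other member, and EC-Rbpj-KO replicate 2 stood at the wild type mean (0.01).

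Aqp1 encodes aquaporin 1, the water channel of the red cell and of many endothelia (chr6:55336299-55348555). Aqp1 read 44 and 49 in EC-N1ICD yolk sacs, compared with 111 and 64 in wild type. It read 44 and 42 in EC-Rbpj-KO yolk sacs, compared with 54 and 50. Its mean signal of 57.3 was below the limit of 67.9 for testing, so its values are near background, and it took no part in the counts of members. From a fit without the filter the log2 change was -0.86 (SE 0.32, adjusted p = 0.345 from limma) in EC-N1ICD and -0.27 (SE 0.32, adjusted p = 0.766 from limma) in EC-Rbpj-KO. In both models the mutant arrays lay below both wild type arrays, as they did for 18.9% and 27.5% of tested genes. Aqp1 was the member whose mutant replicates were closest in EC-N1ICD, with a ratio of replicate 2 to replicate 1 of 1.11, against 1.79 to 5.70 for the other 7 members.

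Car2 encodes carbonic anhydrase 2, the soluble enzyme that supplies bicarbonate to band 3 (chr3:14886269-14900770). Car2 read 554 and 2448 in EC-N1ICD yolk sacs, compared with 3779 and 2858 in wild type, and replicate 1 stood far apart from the other 3 arrays. The log2 change was -1.50 (SE 0.48, 95% interval -2.55 to -0.45, adjusted p = 0.211 from limma), with -2.57 on replicate 1 and -0.42 on replicate 2. Leaving out replicate 2 again took the change past the threshold (adjusted p = 0.00119 from limma).

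In EC-Rbpj-KO, Car2 was the tested member closest to wild type, with signals of 3170 and 3271 against 3966 and 3076 (log2 change -0.12, SE 0.48, 95% interval -1.17 to 0.93, adjusted p = 0.927 from limma). Its EC-Rbpj-KO replicates differed 1.03-fold, whereas those of the other 6 tested members differed 1.53-fold to 4.17-fold, and the replicate 1 array was not low for it. The change of Car2 in EC-N1ICD was 1.38 lower on the log2 scale than that in EC-Rbpj-KO (log2 difference -1.38, SE 0.68, adjusted p = 0.504 from limma), which did not pass the test. No tested member passed this test of the difference between the models, which 0.266% of tested genes did, although Car2 did so without EC-N1ICD replicate 2 (-2.45, adjusted p = 0.00860 from limma).

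At the junction of membrane and skeleton, Ank1 encodes erythroid ankyrin, which ties band 3 to spectrin (chr8:22974836-23150501). Ank1 read 292 and 605 in EC-N1ICD yolk sacs, compared with 1053 and 748 in wild type, without overlap. The log2 change was -1.08 (SE 0.33, 95% interval -1.81 to -0.35, adjusted p = 0.201 from limma), the lowest p of the members, with -1.60 on replicate 1 and -0.55 on replicate 2. In EC-Rbpj-KO it had 235 and 360 against 486 and 351, with overlap and a log2 change of -0.51 (SE 0.33, adjusted p = 0.427 from limma). The level of Ank1 also differed between the wild type groups, by -1.10 on the log2 scale from the EC-N1ICD set to the EC-Rbpj-KO set (SE 0.33, adjusted p = 0.0249 from limma). It was the only tested member to do so, where 34% of tested genes did, and strain, cross and array set cannot be told apart in this difference. The other 3 probe sets of Ank1 had signals of 13 to 74, beside array medians of 38 to 51. Their EC-N1ICD changes were smaller, at -0.32, -0.26 and -0.18 (log2) from brightest to faintest. The brightest of the 3 lay below the median on 2 arrays, and its EC-N1ICD signals (39 and 74) overlapped wild type (71 and 63). The next lay below the median on 6 arrays. Its EC-Rbpj-KO signals were higher, 32 and 39 against 26 and 30 (0.34), while the brightest and the faintest changed by -0.36 and -0.10. The faintest (13 to 18) lay below the median on every array.

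Epb42 encodes protein 4.2, which stabilizes the attachment of ankyrin to band 3 (chr2:121017891-121036877). Epb42 read 33 and 167 in EC-N1ICD yolk sacs, compared with 232 and 307 in wild type. The groups did not overlap, and the log2 change was -1.85 (SE 0.70, 95% interval -3.38 to -0.31, adjusted p = 0.305 from limma), the largest mean difference of the members. It was -3.02 on replicate 1, where the signal of 33 lay below the array median of 47 and the size is limited by background, and -0.68 on replicate 2.

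In EC-Rbpj-KO, Epb42 had signals of 24 and 100 against 143 and 107. It was the only tested member whose EC-Rbpj-KO arrays both lay below both wild type arrays, although replicate 2 was close to the lower of them. The log2 change was -1.34 (SE 0.70, 95% interval -2.87 to 0.20, adjusted p = 0.318 from limma), with -2.37 on replicate 1, a signal again below the array median, and -0.31 on replicate 2. The other probe set of Epb42 read 33 and 37 in EC-N1ICD yolk sacs (wild type 48 and 43) and 25 and 20 in EC-Rbpj-KO yolk sacs (wild type 66 and 36), mostly at or under the array medians. On it the log2 changes were -0.38 and -1.12, and in EC-Rbpj-KO replicate 2 and not replicate 1 was the lower array.

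Epor encodes the erythropoietin receptor (chr9:21958897-21963576), and it had the smallest change of the tested members in EC-N1ICD. Epor read 305 and 547 in EC-N1ICD yolk sacs, compared with 568 and 460 in wild type, and replicate 2 lay between the wild type arrays. The log2 change was -0.32 (SE 0.28, 95% interval -0.94 to 0.29, adjusted p = 0.744 from limma), and without replicate 1 it was 0.10. In EC-Rbpj-KO the signals were 228 and 352 against 337 on both wild type arrays, a log2 change of -0.25 (SE 0.28, 95% interval -0.86 to 0.36, adjusted p = 0.670 from limma) that was 0.06 without replicate 1.

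Ermap encodes the erythroid membrane-associated protein, a butyrophilin-like surface protein that carries the Scianna blood group antigens (chr4:119175457-119190013). Ermap read 162 and 769 in EC-N1ICD yolk sacs, compared with 927 and 688 in wild type, so that replicate 2 lay between the wild type arrays. Its log2 change was -1.18 (SE 0.60, 95% interval -2.48 to 0.13, adjusted p = 0.482 from limma), with -2.30 on replicate 1 and -0.05 on replicate 2. In EC-Rbpj-KO it had 203 and 491 against 614 and 353, a log2 change of -0.56 (SE 0.60, adjusted p = 0.651 from limma), with -1.20 on replicate 1 and 0.08 on replicate 2.

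**Figure D3:**
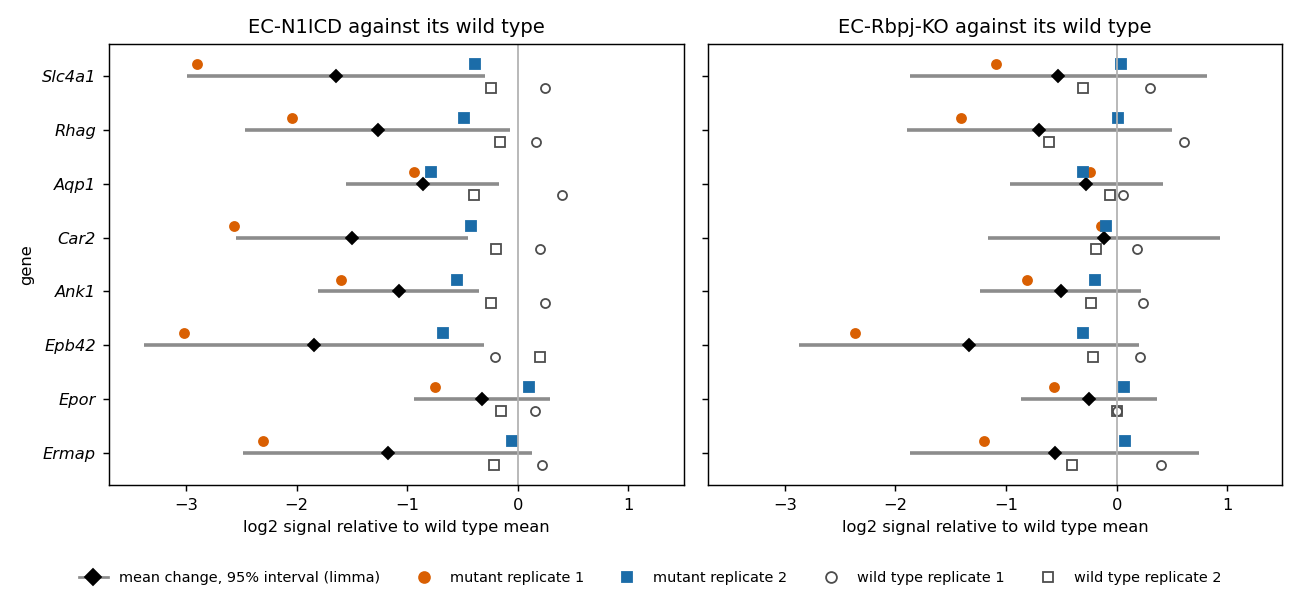
Log2 signal of each gene with the wild type mean of its set taken as 0, in EC-N1ICD (left) and EC-Rbpj-KO (right), with diamonds and bars for the mean change and its 95% interval from limma, filled points for the mutant arrays and open points for the wild type arrays. The filled circles of replicate 1 lie far below the filled squares of replicate 2 for 6 genes in EC-N1ICD (Slc4a1, Rhag, Car2, Ank1, Epb42 and Ermap), whereas Car2 and Aqp1 in EC-Rbpj-KO have both close to each other.

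The mutant replicates differed for most of these genes, whose patterns over the arrays were alike, so that the genes are not separate observations. All 7 tested members had a lower signal on replicate 1 than on replicate 2 in both models, as did 24.3% of tested genes. Replicate 1 lay at least 2-fold below replicate 2 for 6 members in EC-N1ICD (0.999% of tested genes) and for 4 in EC-Rbpj-KO (0.98%). Slc4a1, Rhag, Epb42 and Ermap did so in both models, and they were 4 of 20 such genes among all tested genes (0.183%). The other 16 were Alas2 and Klf1, which encode the first enzyme of heme synthesis in red cells and an erythroid transcription factor, Kel, the Kell blood group protein, Add2, a skeleton protein, Trim10, Cldn13, Redrum, Tubb1, Sdc4, Cited4, Slc30a10, Nxpe2, Mogat1, Ddx4, Rbm45 and Efhc2. These counts were chosen after the values were seen, and those over both models depend on a replicate numbering that pairs nothing. Some of the 16 also spread widely between wild type arrays, such as Rbm45 (1294 and 162 in the EC-N1ICD set, 1073 and 175 in the EC-Rbpj-KO set) and Efhc2 (22 and 192, 622 and 23). Sdc4 (1377 and 4706) and Tubb1 (278 and 740) did so in the EC-Rbpj-KO set. For others, such as Alas2 (2402 and 2815, 1053 and 764), the wild type arrays lay closer. The wild type arrays of the EC-N1ICD set lay 0.30 to 0.49 apart on the log2 scale for the tested members, while EC-N1ICD replicate 1 minus replicate 2 was -0.84 to -2.51. In the EC-Rbpj-KO set the mutant replicates likewise differed more than the wild type arrays for 6 members and less for Car2 (-0.05 beside 0.37).

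When embryo sex, as read from Xist and the Y-linked genes, was added to the fit, the EC-N1ICD changes were -0.52 for Slc4a1, 0.15 for Rhag, -1.45 for Car2, -0.46 for Ank1, 0.21 for Epb42, 0.30 for Epor and 0.10 for Ermap. Rhag, Epb42, Epor and Ermap thus turned direction, and no member passed the test. The sex term rests on the contrast of both EC-Rbpj-KO arrays alone, which are also the arrays with different first numbers in their names, so sex, that number and the replicate cannot be told apart. In EC-Rbpj-KO the fit with sex gave each member the change of replicate 2, -0.31 to 0.08 over the 7.

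Markers of red cells and of other cell types were read beside the members. The 12 tested genes for embryonic globins, heme synthesis and erythroid factors had a median log2 change of -0.76 in EC-N1ICD (-1.04 on replicate 1 and -0.33 on replicate 2) and -0.35 in EC-Rbpj-KO (-0.60 and -0.04), and none of them passed the test, although both EC-N1ICD arrays lay below both wild type arrays for 10 of the 12 (18.9% of tested genes) and both EC-Rbpj-KO arrays for 5 of the 12 (27.5%). Summed over the 13 genes of this list on the array, with Hba-a1 from below the filter, the signal was 55325 and 90750 in EC-N1ICD. Wild type had 103112 to 107838. The sum of all 8 members, Aqp1 included, was 1917 and 7373 against 8247 to 11006. The median of the 7 tested members minus that of the 12 tested genes of this list was -1.26 and -0.10 (log2) on EC-N1ICD replicates 1 and 2. On those of EC-Rbpj-KO it was -0.49 and 0.05. These differences depend on which genes the list holds. On EC-N1ICD replicate 1 its genes Alas2 (-2.67), Klf1 (-2.07), Gata1 (-1.93) and Hba-x (-1.58) lay below its median of -1.04, while the members' median was -2.30. Tagln and Myl9, smooth muscle contractile genes, rose 2.95-fold and 1.81-fold in EC-N1ICD (2 of 7 tested genes of their list), and the platelet chemokine Pf4 fell (304 and 668, compared with 1400 and 2324). It was 1 of 7 tested megakaryocyte and platelet genes, 6 of which were lower in EC-N1ICD without overlap, with a median of -0.67 (-0.83 on replicate 1 and -0.63 on replicate 2), against a median of 0.10 in EC-Rbpj-KO.

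Of 6 macrophage markers, 1 rose in EC-N1ICD (Ly86, 4.26-fold) and 4 rose (Ly86, Csf1r, Cx3cr1 and Adgre1) and Cd68 fell in EC-Rbpj-KO, where their summed signal was 2720 to 3420 against 992 to 1442. Of 10 endothelial markers, none passed in EC-N1ICD and Cldn5 and Icam2 rose in EC-Rbpj-KO (3.08-fold and 2.06-fold, median of the list 0.44). The 11 visceral endoderm markers had medians of -0.03 and -0.10, and Lrp2 and Cubn fell in EC-Rbpj-KO by 1.16 and 0.34. The part of these markers in the members' values was not tested.

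**Figure D4:**
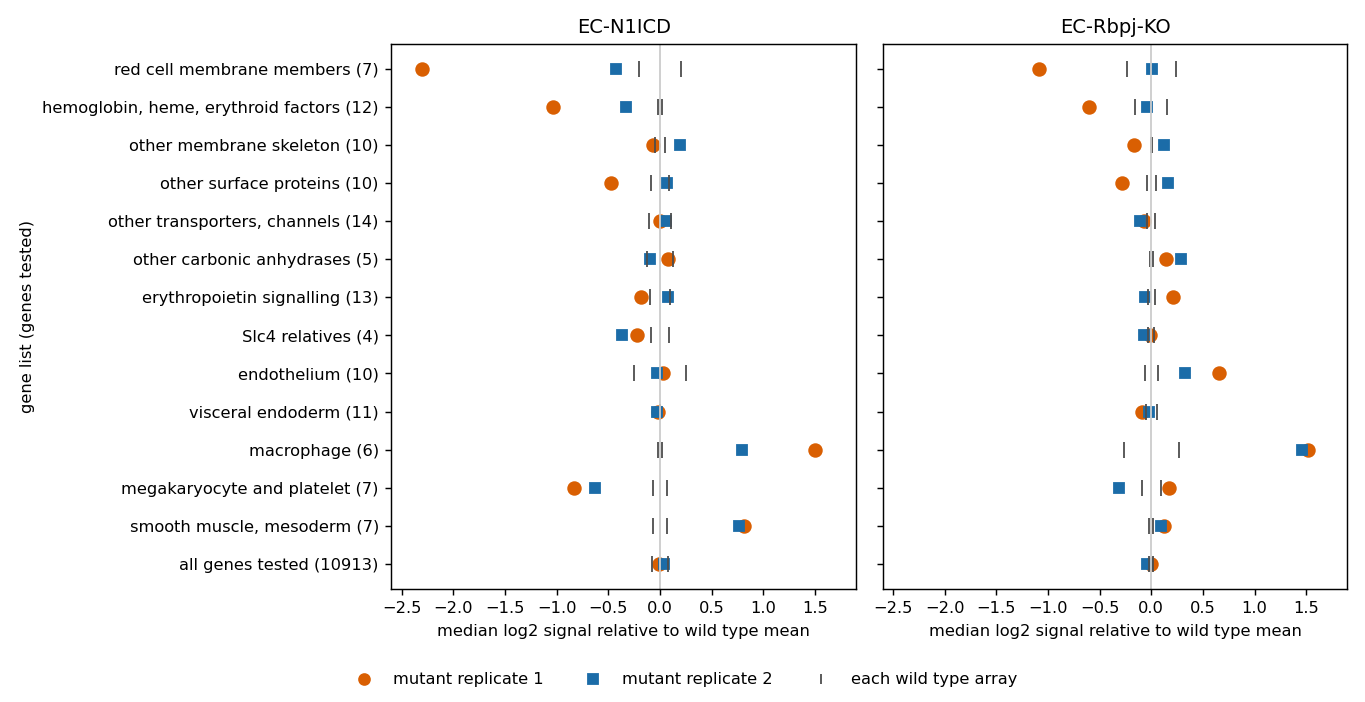
Median log2 signal relative to the wild type mean over the tested genes of each list (number in brackets), in EC-N1ICD (left) and EC-Rbpj-KO (right), with circles for mutant replicate 1, squares for replicate 2 and ticks for each wild type array. The 7 red cell membrane genes have the lowest medians on replicate 1 of both models (-2.30 and -1.09), while all 10913 tested genes lie at 0.00 on replicate 1.

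Other components of the red cell membrane were read from lists of related genes. Of 10 tested genes of the membrane skeleton (spectrin, adducins, dematin, tropomyosins and their partners), none passed in EC-N1ICD, and Add3, an adducin also found outside red cells, rose 1.69-fold in EC-Rbpj-KO (adjusted p = 0.0226 from limma). In EC-N1ICD, 4 genes of the list were higher and 1 lower without overlap (23.7% and 18.9% of tested genes), and the smallest p were those of the tropomyosins Tpm1 and Tpm3, with means 1.78-fold and 1.23-fold that of wild type (adjusted p = 0.0531 and 0.149 from limma). The lower gene was Dmtn, which bundles actin at the junctions of the skeleton and read 50 and 124 in EC-N1ICD yolk sacs (wild type 208 and 149) and 75 and 93 in EC-Rbpj-KO yolk sacs (wild type 185 and 111). Its log2 changes were -1.16 (adjusted p = 0.250 from limma) and -0.78 (adjusted p = 0.310 from limma). Sptb, erythroid beta spectrin, read 88 and 211 in EC-N1ICD yolk sacs (wild type 245 and 194) and 131 and 201 in EC-Rbpj-KO yolk sacs (wild type 199 and 191). As for most members, replicate 1 was the low array of Sptb in both models. The median of the list was 0.14 and -0.05, against 0.01 and -0.02 over all tested genes.

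Of 10 tested surface and blood group proteins, Cd44, the hyaluronan receptor and carrier of the Indian blood group, rose 2.50-fold in EC-N1ICD, with signals of 698 and 578 against 276 and 234 (adjusted p = 0.0214 from limma). Cd59a, an inhibitor of complement lysis, fell by 2.01 (log2) in EC-Rbpj-KO, with 467 and 249 against 970 and 1958 (adjusted p = 0.00880 from limma). Both genes moved on both replicates, and Cd44 is expressed by many cells besides red cells. The list had a median of -0.50 (EC-N1ICD) and -0.22 (EC-Rbpj-KO). Rhd, the Rh protein that forms a complex with Rhag and the one relative of Rhag that passed the filter, read 148 and 379 in EC-N1ICD yolk sacs (wild type 293 and 383) and 180 and 304 in EC-Rbpj-KO yolk sacs (wild type 316 and 253). Its log2 changes were -0.50 and -0.27.

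Of 14 tested transporters and channels, none passed in EC-N1ICD, and Abcg2, a porphyrin and drug exporter, fell by 0.45 (log2) in EC-Rbpj-KO, with 6869 and 6992 against 9318 and 9618 (adjusted p = 0.0118 from limma). The smallest p in EC-N1ICD were those of the water channel Aqp8 and the glucose transporter Slc2a1, with means 1.58-fold and 1.24-fold that of wild type (adjusted p = 0.138 and 0.235 from limma). Next came Slc29a1, the nucleoside transporter of red cells, which had 105 and 182 in EC-N1ICD against 336 and 208 (log2 change -0.94, adjusted p = 0.240 from limma). Of 4 tested relatives of Slc4a1, Slc4a4, a sodium bicarbonate cotransporter, fell by 1.13 in EC-Rbpj-KO, with 215 and 173 against 417 and 426 (adjusted p = 0.00815 from limma). None of the relatives passed in EC-N1ICD, where Slc4a4 had 148 and 140 against 191 and 176. The medians in EC-N1ICD and EC-Rbpj-KO were 0.01 and -0.12 for the transporters and -0.36 and 0.03 for the relatives of Slc4a1.

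Of the 5 tested carbonic anhydrases beside Car2 none passed in either model. Car4, the membrane-bound form, had a 1.32-fold higher mean in EC-N1ICD (adjusted p = 0.120 from limma), and Car7 a log2 change of -0.57 in EC-Rbpj-KO (adjusted p = 0.0609 from limma). Downstream of Epor, none of 13 tested genes of erythropoietin signalling passed in either model, among them the kinase gene Jak2 and both Stat5 genes. Those with the smallest p were Ptpn6, a phosphatase that acts on the receptor, whose mean was 1.36-fold and 1.44-fold that of wild type (adjusted p = 0.257 and 0.0842 from limma), and Bcl2l1, a survival factor, with -0.48 in EC-N1ICD (adjusted p = 0.351 from limma). The 2 other ankyrins, Ank2 and Ank3, did not pass either, and the 3 butyrophilin relatives of Ermap on the array were below the filter. The medians of the carbonic anhydrases were -0.01 and 0.21, and those of the erythropoietin list -0.01 and 0.12.

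The genes whose pattern was most like that of the members were found by Pearson's r over the 8 arrays, with each array's log2 signal taken relative to the wild type mean of its set and set against the median of the 7 tested members. The 10 tested non-members with the highest r were Gata1 (0.991), Steap3 (0.990), Hba-x (0.989), Blvrb (0.985), Sptb (0.982), Alas2 (0.980), Dok3 (0.969), Supt16 (0.968), Trim10 (0.965) and Dhh (0.965). Gata1 encodes the erythroid transcription factor, Hba-x embryonic zeta globin, Steap3 an iron reductase and Blvrb biliverdin reductase B. Gata1 read 245 and 705 in EC-N1ICD yolk sacs (wild type 939 and 922) and 183 and 311 in EC-Rbpj-KO yolk sacs (wild type 365 and 274). The r values are descriptions over arrays that share sets and depend largely on 1 low array of each mutant. By rank over the arrays (Spearman), the correlation was 0.60 for Dok3 and 0.74 for Supt16, against 0.86 to 1 for the others. Dok3 and Dhh had mean signals of 70.25 and 68.9, close to the limit of 67.9 for testing.

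Within the members, r with the median of the other members was 0.995 for Slc4a1, 0.975 for Ermap, 0.974 for Ank1, 0.936 for Rhag, 0.926 for Epb42, 0.911 for Epor, 0.891 for Car2 and 0.719 for Aqp1. With the median of the hemoglobin and heme list r was 0.709 to 0.976, and for Rhag (0.973), Epb42 (0.965) and Ank1 (0.976) it was higher than with the other members. With the median of the endothelial list r was -0.43 to 0.26 over the 8 members. Car2 had the lowest r of the tested members and parted from them on EC-Rbpj-KO replicate 1, where it had -0.14 against -0.56 to -2.37 for the other 6.

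**Figure D5:**
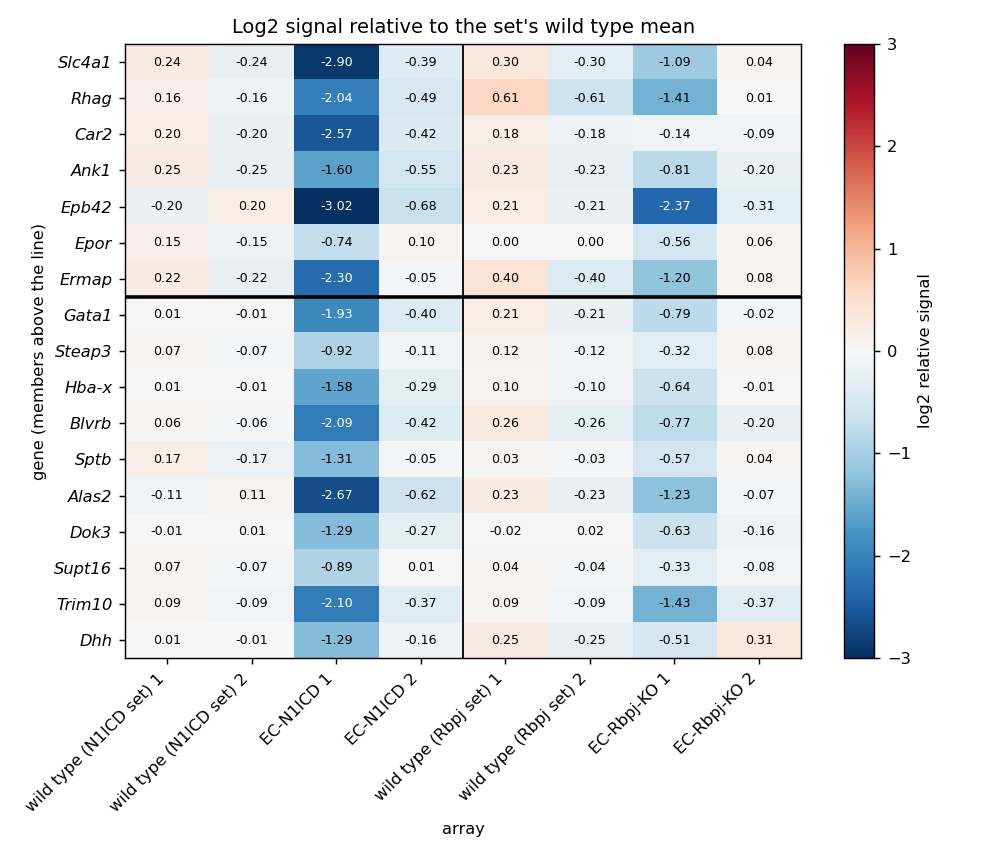
Log2 signal relative to the wild type mean of the set for the 7 tested members (above the line) and the 10 non-members with the most similar pattern, by array, in colours from blue (lower) to red (higher). The EC-N1ICD replicate 1 column is the darkest (-0.74 to -3.02 for the members), followed by EC-Rbpj-KO replicate 1, and the columns of both replicate 2 arrays are pale.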

How the data were processed

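Total RNA of E9.5 yolk sac was labelled after oligo-dT priming and hybridised to single-channel Affymetrix arrays. The deposited intensity values are 1 linear signal per probe set and array, summarised by the authors with MAS5 per the labels, with version and scaling target not given in the sources used here. They run from 7 to 36554, array medians were 38 to 51, and the number of arrays limits the precision. RNA quality ratios of 3' to 5' signal were 1.72 to 2.34 for Actb and 2.43 to 4.64 for Gapdh (highest on EC-Rbpj-KO replicate 1), and replicates correlated at 0.976 to 0.987.

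Of 45101 probe sets, 34958 name 1 gene. 1 probe set per gene was kept, the brightest on average over the arrays, and the 10913 genes with a mean above the 40th percentile (67.9) were tested. limma 3.58.1 (R 4.3.3) was run on the log2 signals of all 8 arrays as 4 groups (eBayes with trend, 4 residual and 7.37 prior degrees of freedom), each mutant against the wild type of its set, two-sided, with Benjamini-Hochberg adjustment and a threshold of 0.05. The steps were tested on simulated data. "Rose" and "fell" are used of genes that passed. Values without 1 array come from refits of this model, in which a lone array is assumed to vary like the other groups. The methods' t-test is the equal variance test on the same values, since the study's methods name it without naming the arrays.

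The members, related lists, marker lists and counts were chosen with earlier results of these data known. Text names all members, label checks, list genes that passed or were among the 3 with the smallest p in a comparison, and the 10 genes most like the members. Gata1 is named under the last. Sptb, Rhd, Jak2 and the 16 genes beside 4 members were named after their values were seen, as was Slc4a4 in EC-N1ICD. Promoter letters were matched exactly in RefSeq windows, which 5 of 8 members had. Some genes of the lists are not reported here.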

Additional observations from a re-analysis of the deposited data

How the results depend on the processing

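No member passed the test in any setting except Car2 and Slc4a1 in EC-N1ICD without EC-N1ICD replicate 2, the mutant array nearer wild type. Their log2 changes were then -2.57 and -2.90, each resting on a lone mutant array. Under the other planned settings (60th percentile filter, no filter, a constant of 16 added, median centring, quantile normalization, the mean of all probe sets, every other probe set of a member, each set fitted alone, eBayes without trend, the methods' t-test and sex in the fit) the count of members was 0 in both models. The members' median stayed between -1.15 and -1.38 in EC-N1ICD and between -0.43 and -0.59 in EC-Rbpj-KO over the scalings. Over all tested genes, the 65 calls in EC-N1ICD became 103 with each set fitted alone, 118 with quantile normalization, 27 with the 60th percentile filter, 15 with sex in the fit, 0 with the methods' t-test (939 unadjusted) and 7 to 140 when 1 array was left out (7 without EC-N1ICD replicate 1, 14 and 16 without the wild type arrays of its set, 137 and 140 without the EC-Rbpj-KO arrays). They became 26 without both mutant arrays numbered 1, a setting chosen after seeing the data. The 541 calls in EC-Rbpj-KO became 266 with each set fitted alone, 1 with the methods' t-test (1313 unadjusted) and 147 to 628 when 1 array was left out (191 and 147 without the wild type arrays of its set). The cause was not tested. Arrays could not be paired by replicate number, because these numbers follow the order of deposit. A block on the first number in the sample names leaves replicate 1 of each mutant alone in its block, so that the changes of the 7 tested members are those without both arrays, -0.68 to 0.10 in EC-N1ICD and -0.31 to 0.08 in EC-Rbpj-KO, none past the test. Background limits Aqp1, the low signals of Epb42, the faintest probe set of Slc4a1 and all but the brightest probe set of Ank1 and Epb42.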
